A study of Mus musculus with 9 samples.

Results

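The transporters of organic ions, drugs and lipids form the subject here: all genes of the count table whose mouse symbol begins with Slc22a, Slc47a or Slco, or with Abca to Abcg, followed by a digit. The rule uses names alone and finds 76 of 14052 genes, namely 20 Slc22a, 1 Slc47a, 11 Slco and 44 Abc genes. The reference used to match symbols holds 93 that fit the rule, so some have no row in the count table and are not covered. RNA was sequenced from 9 renal cortex areas, all of mice aged about 1 year. The tumour group is 5 areas (L4, R2, R3, R4 and R5) of kidney tumours from VhlF/FPbrm1F/FKsp-Cre mice, in which loxP-flanked Vhl and Pbrm1 are deleted by a Cre driven from the Ksp promoter of kidney tubule epithelium. These mice are of a mixed C57BL/6, BALB/c and 129 background. The normal group is 4 areas (L1, L2, R1 and R2) of wild-type C57BL/6 kidney cortex, without floxed alleles or Cre. All mice were on a normal diet. All tumour areas carry 1 number in their descriptions and all normal areas another, so a group may come from 1 animal. Genotype, strain and animal cannot be told apart here, and p-values measure the spread between areas.

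Proximal tubule cells clear drugs and waste in a relay. Organic anion transporters (OAT) and organic cation transporters (OCT) of the Slc22a family take charged molecules from the blood, and MATE antiporters (Slc47a) and MRP pumps (Abcc) of the brush border pass them into urine. OATP carriers (Slco) move larger amphipathic molecules such as steroid conjugates, thyroid hormones and prostaglandins. ABC proteins use ATP. Most Abca and Abcg members handle lipids and sterols, most Abcd members bring fatty acids into peroxisomes, and Abce1 and the Abcf proteins act on ribosomes and do not transport.

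Counted reads per area ran from 5143527 to 8250261. Levels are CPM, counts set to a common library total after scaling by TMM, which aligns the bulk of genes between libraries, and 3 counts, the limit that a count of 0 allows, come to 0.409 to 0.649 CPM for counting error only. Of the 14052 genes, 3989 (28.4%) held no count in any area, among them 67 of 218 ribosomal, proteasome, respiratory and other genes with a role in nearly all cells. A count of 0 here is therefore not evidence of a silent gene. The proximal tubule enzyme genes Ggt1 and Miox, both in the marker list used here, reached only 0.494 and 0.623 CPM even in normal areas. Tumour areas L4 and R5 stood apart: summed fat markers (Plin1, Cfd and Fabp4) were 599.7 CPM in L4 and 128 CPM in R5, against 1.51 to 16.99 CPM in tumour areas R2, R3 and R4 and 2.02 to 9.82 CPM in normal areas. Summed urothelial and basal epithelial markers (6 of 7 with counts, Krt14 at 0) were 1065 and 187 CPM in L4 and R5, 12.1 to 51.9 CPM in R2, R3 and R4 and 0.332 to 3.68 CPM in normal areas. Proximal tubule, distal tubule, collecting duct, podocyte and liver markers were mostly lower in tumour areas (12 of 12, 5 of 6, 7 of 7, 3 of 3 and 4 of 5 tested), and T and NK cell, B and plasma cell and fibroblast markers mostly higher (6 of 6, 4 of 4 and 5 of 7). The Y-linked gene Kdm5d, listed because some transporters differ by sex in mouse kidney, had 13 to 32 counts in each of the 9 areas.

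Among the 76 members, 62 had at least 1 count and 52 passed the filter on low counts. Of the 52 tested, edgeR's quasi-likelihood test (adjusted p under 0.05) called 16 higher and 25 lower in tumour areas. That is 78.8% of them, 30.8% higher and 48.1% lower, beside 74.6%, 39.3% and 35.3% of all 7020 tested genes. At least 2-fold changes among these calls numbered 6 higher and 13 lower members, against a background of 17.3% and 12.6%. The groups did not overlap in 37 of 52 members (12 higher and 25 lower), or 71.2%, beside 67.8% of all tested genes (34.8% higher and 33.0% lower). The median log2 fold change (tumour over normal, throughout) was -0.17 over the members and 0.06 over all genes. When libraries were scaled by size alone, which moved the median of all genes by 0.29, the member median turned to 0.12, with 18 members higher and 20 lower, and all genes split into 3735 higher and 1689 lower, in place of 2760 and 2476. By family, 4 of 17 tested Slc22a genes were higher and 8 lower, and 11 of 28 ABC genes were higher and 12 lower (median -0.16, or 0.13 with library size). Changes below are relative to TMM scaling.

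The 14 members without a count include Abcb1a, a drug efflux pump, Abcb6, Abcc5 and Slco4a1. The other 10 untested members had at most 15 counts over the tumour areas and 27 over the normal areas. For Abcc8, a sulfonylurea receptor, 5 of its 6 counts lay in tumour L4.

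**Figure D1:**
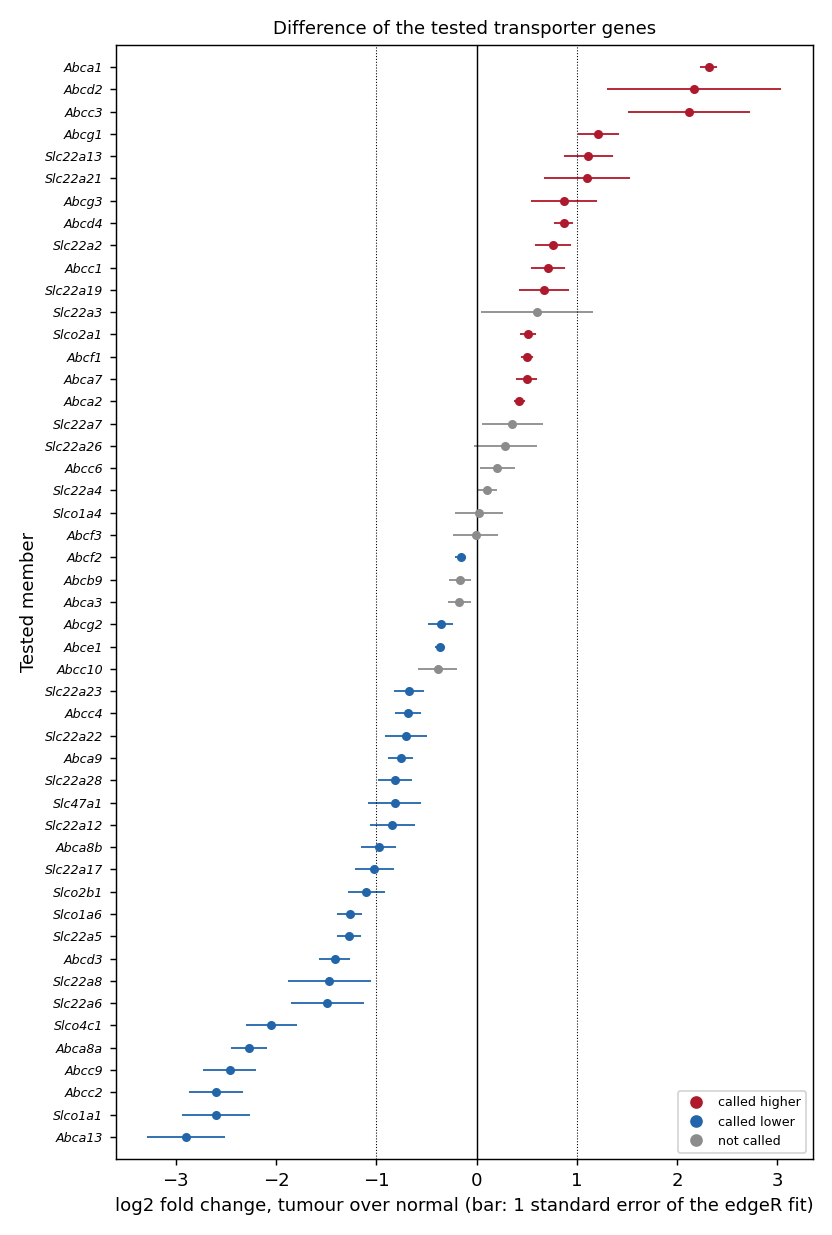
Log2 fold change (x axis, tumour over normal) of 49 tested members (y axis), with bars of 1 standard error from the edgeR fit. Of these, the 15 called higher are red, the 24 called lower blue and the rest grey. The dotted lines mark 2-fold, and values run from -2.89 for Abca13 to 2.32 for Abca1.

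The genes of OAT1 and OAT3, the main anion uptake carriers of the blood side, were lower in tumour areas. Slc22a6, which encodes OAT1, and Slc22a8, which encodes OAT3, take up anions such as para-aminohippurate and many drugs in exchange for alpha-ketoglutarate. In tumour areas L4, R2, R3, R4 and R5, Slc22a6 stood at 569, 288, 1089.8, 1311 and 1241 CPM, against 2408, 2489, 2664 and 2548 CPM in normal areas L1, L2, R1 and R2. Areas are in this order below. All tumour areas lay under all normal areas, and R2 was lowest (log2 fold change -1.49 ± 0.36 SE, adjusted p = 0.00365 in edgeR). In bulk tissue, fewer cells of a type and less RNA per cell cannot be told apart. Slc22a8 read 277, 119, 606, 689.6 and 652 CPM in tumour areas, against 1183, 1302, 1414 and 1297 CPM in normal areas (-1.47 ± 0.41, adjusted p = 0.00796 in edgeR). Both genes were lowest in R2, next lowest in L4, and close together in the other tumour areas. The level of Slc22a6 divided by that of Slc22a8 ran from 1.80 to 2.41 in tumour areas and from 1.88 to 2.03 in normal areas, so the pair kept nearly 1 ratio while each varied several-fold among tumours. The 2 genes are neighbours in the RefSeq gene order.

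Their promoters are shown because the pair moved together, beside that of Slc22a2, which moved the other way, and of Abca1, the member with the largest increase. Each is the RefSeq window of 300 bases on GRCm38.p6, matched by symbol since the submitters name mm9, from 250 bases before the transcription start to 50 after it. Both strands were searched for CAAAGTC, a core of HNF4 sites, and ACGTG, a core of HIF sites, and capitals mark a match. Other forms of either core were not searched, so a window without a match may still hold one. The windows are chr19:8617746-8618045 on the plus strand (Slc22a6), chr19:8592932-8593231 on the plus strand (Slc22a8), chr17:12583939-12584238 on the plus strand (Slc22a2) and chr4:53159846-53160145 on the minus strand (Abca1).
Slc22a6: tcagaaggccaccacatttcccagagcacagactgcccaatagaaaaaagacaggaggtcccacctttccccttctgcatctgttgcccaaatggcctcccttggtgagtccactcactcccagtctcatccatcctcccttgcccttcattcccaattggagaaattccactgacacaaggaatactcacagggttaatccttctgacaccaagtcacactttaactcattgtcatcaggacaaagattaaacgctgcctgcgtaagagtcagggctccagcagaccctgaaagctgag
Slc22a8: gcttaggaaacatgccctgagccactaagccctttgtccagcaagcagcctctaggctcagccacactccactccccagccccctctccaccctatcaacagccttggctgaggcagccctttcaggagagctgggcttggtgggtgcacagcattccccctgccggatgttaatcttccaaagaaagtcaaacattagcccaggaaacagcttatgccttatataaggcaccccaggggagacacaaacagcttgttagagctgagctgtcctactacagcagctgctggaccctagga
Slc22a2: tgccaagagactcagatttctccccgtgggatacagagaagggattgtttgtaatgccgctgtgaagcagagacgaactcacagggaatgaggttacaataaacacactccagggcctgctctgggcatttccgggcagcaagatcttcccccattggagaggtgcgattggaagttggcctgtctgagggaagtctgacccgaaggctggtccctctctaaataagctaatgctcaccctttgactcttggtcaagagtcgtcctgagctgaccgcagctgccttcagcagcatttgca
Abca1: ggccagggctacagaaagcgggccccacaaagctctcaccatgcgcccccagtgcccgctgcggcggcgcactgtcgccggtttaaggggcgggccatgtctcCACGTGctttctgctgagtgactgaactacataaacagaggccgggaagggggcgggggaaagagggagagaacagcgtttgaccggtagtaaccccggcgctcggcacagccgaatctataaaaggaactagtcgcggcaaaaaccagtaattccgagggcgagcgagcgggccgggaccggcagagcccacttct
Windows matched 60 of 76 members, with 72 windows in all. The capitals in Abca1 are CACGTG, a palindrome in which ACGTG reads on both strands with overlap. ACGTG is in 13 of 72 member windows and in 19.6% of all 32851 windows, and CAAAGTC in 6 member windows and 4.44% of all windows. The windows of Slc22a6, Slc22a8 and Slc22a2 hold neither motif. Among tested members, ACGTG is in a window of Abca1, Abcf1 and Slco2a1, which were called higher. It is also in a window of Abca8a, Abca8b, Abcc4 and Slc22a17, which were called lower, and of Slc22a4, which was not called. CAAAGTC is in a window of the tested members Abca7, called higher, Abcd3, called lower, and Slc22a3, not called. A match is a description of letters and not a measured binding site.

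Other anion transporters split. Slc22a12, which encodes URAT1, the brush border urate reabsorber, averaged 129 ± 43.7 CPM (SD, n = 5) in tumour areas and 230.2 ± 17.5 CPM (SD, n = 4) in normal areas and fell (-0.84 ± 0.22, adjusted p = 0.00605 in edgeR). Slc22a22, a prostaglandin carrier described in mouse, averaged 47.2 ± 14.9 CPM against 76.8 ± 4.81 CPM (-0.70 ± 0.21, adjusted p = 0.0104), a call not made with library size alone (adjusted p = 0.0557). Slc22a28 fell too (81.3 ± 21.2 against 142 ± 2.84 CPM, -0.81 ± 0.17), but 53.9% of its 50-base words also occur in other genes of its cluster, so its count depends on how shared reads were handled. Slc22a13, which encodes OAT10, a carrier of urate and nicotinate, rose. It stood at 122, 281, 236, 241 and 138 CPM in tumour areas, against 116, 92.3, 86.0 and 82.6 CPM in normal areas (1.11 ± 0.25, adjusted p = 0.00193 in edgeR). The lowest tumour area, L4, was close to the highest normal area, L1. Slc22a13 shares 36.0% of its words with the pseudogene Slc22a13b-ps, so reads of the pair may be split.

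Slc22a19, which encodes OAT5, reached 75.3, 75.8, 174, 142 and 117 CPM in tumour areas, against 89.8, 72.6, 64.4 and 66.4 CPM in normal areas (0.67 ± 0.25, adjusted p = 0.0298 in edgeR). L4 and R2 lay within the normal range, and the call was lost without tumour R3 or R4, without normal L2, R1 or R2, with the area letter as a covariate and in limma-voom (adjusted p = 0.0542 to 0.0808). Its cluster neighbour Slc22a26 was not called, at 83.8 ± 38.7 against 68.6 ± 9.67 CPM (0.29 ± 0.31, adjusted p = 0.42). Slc22a7, which encodes OAT2, was not called either, at 101 ± 43.0 against 79.1 ± 12.4 CPM (0.36 ± 0.30, adjusted p = 0.302), though with tumour R2 left out it passed (0.55, adjusted p = 0.0363). R2 was the lowest tumour area for both Slc22a7, at 44.3 CPM, and Slc22a26, at 37.9 CPM, as it was for Slc22a6 and Slc22a8.

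Of the organic cation transporters described here, 1 uptake carrier rose and 1 exit carrier fell. Slc22a2, which encodes OCT2, the basolateral uptake carrier for creatinine and metformin, had 684, 1424, 1058, 1088 and 809 CPM in tumour areas, against 619, 573, 623 and 575 CPM in normal areas. Every tumour area lay above every normal area, and the level was highest in R2, where Slc22a6 was lowest. Slc22a2 rose by 0.76 ± 0.18 on the log2 scale (adjusted p = 0.00318 in edgeR). The level of Slc22a2 divided by that of Slc22a6 was 1.20, 4.94, 0.970, 0.830 and 0.652 in tumour areas and 0.226 to 0.257 in normal areas.

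Slc22a3, a neighbour of Slc22a2 in gene order and the extraneuronal monoamine transporter OCT3, stood at 19.6, 3.02, 3.63, 3.05 and 9.59 CPM in tumour areas, against 5.41, 5.32, 4.65 and 5.47 CPM in normal areas. Only L4 and R5, the areas with the highest fat and urothelial marker sums, were above the normal range, and the other 3 were below it (0.60 ± 0.56, adjusted p = 0.347 in edgeR). Without L4 and R5 Slc22a3 was lower in tumour areas (-0.67, adjusted p = 0.00649). The part of those cell types in the value was not tested. Slc47a1, the MATE1 antiporter that passes cations into urine, fell to 14.4 ± 6.18 CPM in tumour areas, against 25.4 ± 1.41 CPM in normal areas (-0.82 ± 0.27, adjusted p = 0.0174). This call was not made with library size alone (adjusted p = 0.0784) or among R areas alone (adjusted p = 0.0712).

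Carnitine carriers and their relative differed by gene. Slc22a5, which encodes OCTN2, the high-affinity carnitine carrier, had 160.5, 199, 225, 264 and 221 CPM in tumour areas, against 525, 516, 522 and 504 CPM in normal areas. The groups were far apart (-1.27 ± 0.12, adjusted p = 4.28e-06 in edgeR), and 26.3% of its words are shared with Slc22a21 and Slc22a4. Slc22a4, which encodes OCTN1, an ergothioneine carrier, was 85.1 ± 11.7 against 79.0 ± 2.91 CPM (0.10 ± 0.10, adjusted p = 0.353), but was called when tumour L4 was dropped (0.19, adjusted p = 0.0226), without L4 and R5 (0.21) and with library size alone (0.39). Slc22a21, a carnitine carrier gene of mouse between them, averaged 2.86 ± 1.05 against 1.33 ± 0.667 CPM (1.10 ± 0.43, adjusted p = 0.0383), with overlapping groups. The call ended without any 1 of the 4 normal areas (adjusted p = 0.0501 to 0.0881), with the letter covariate and in limma-voom, the log2 fold change was 1.77 among R areas alone, and 22.0% of its words are shared, chiefly with Slc22a5.

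Slc22a17, a receptor for lipocalin 2, stood at 29.6, 12.9, 23.2, 25.8 and 26.0 CPM in tumour areas, against 43.5, 45.8, 55.5 and 47.0 CPM in normal areas. It fell in every tumour area and most in R2 (-1.02 ± 0.19, adjusted p = 0.00074 in edgeR). Slc22a23, with no settled substrate, fell as well (18.2 ± 3.62 against 28.9 ± 2.78 CPM, -0.67 ± 0.15).

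**Figure D2:**
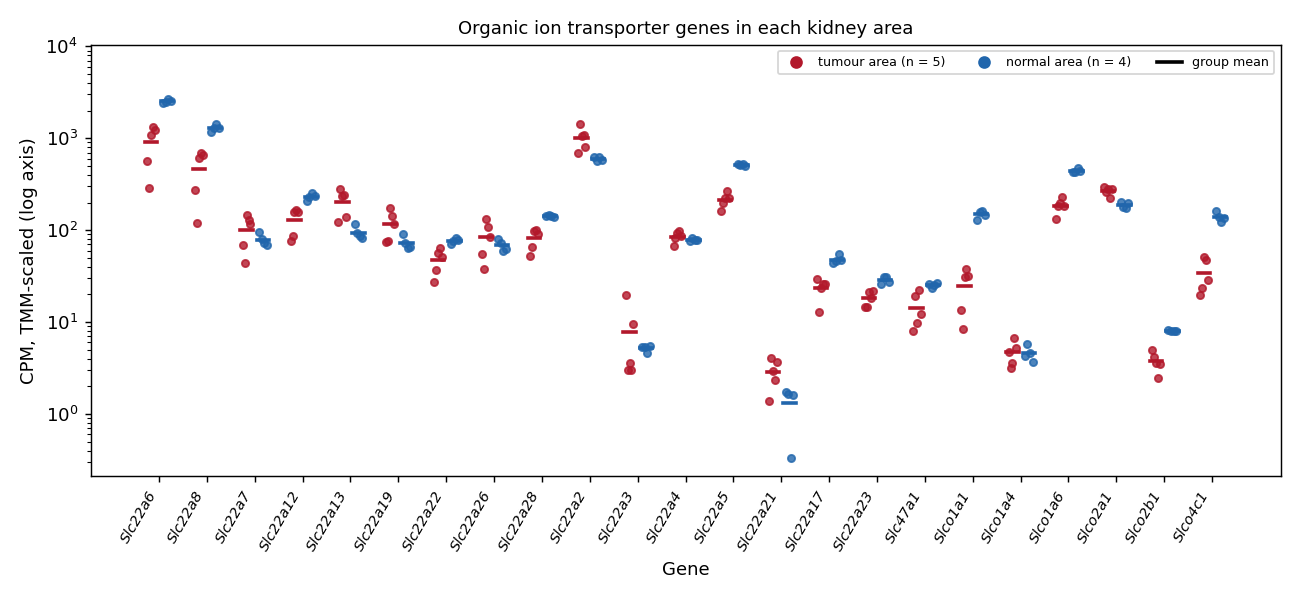
CPM (log y axis) of 23 tested Slc22a, Slc47a and Slco genes (x axis) in 5 tumour areas (red, left of each pair) and 4 normal areas (blue, right), with bars at the group means. Slc22a6 and Slc22a8 lie below the normal areas in all tumour areas, and Slc22a2 lies above them.

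Proximal tubule markers were lower in tumour areas in all 12 tested, of 15 listed and 14 in the table, as were Slc22a6, Slc22a8 and Slc22a5, while Slc22a2, Slc22a13, Slc22a19 and Slc22a21 were higher. The part of proximal tubule cells in these results was not tested. The summed marker level was 11205 to 21383 CPM in tumour areas and 40260.0 to 42038 CPM in normal areas. Set against that sum, the members differed. Slc22a5 stood at 11.6 to 14.3 CPM per 1000 CPM of markers in tumour areas and 12.2 to 13.04 in normal areas, and Slco1a6 at 10.2 to 11.9 in tumour areas and 10.4 to 11.2 in normal areas. Slc22a6 stood at 18.7 to 74.8 in tumour areas and 59.7 to 63.4 in normal areas, with R2 alone far below. Slc22a2 stood at 48.8 to 92.5 in tumour areas and 13.7 to 15.4 in normal areas. Abcc2 stood at 6.36 to 10.5 in tumour areas and 20.6 to 21.3 in normal areas. These ratios are descriptions, since the sum is made mostly of a few abundant genes such as Slc34a1, Acsm2 and Lrp2.

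Of 6 tested Slco genes, which encode OATP carriers, 4 were lower, 1 was higher and 1 was not called, beside 35.3% lower and 39.3% higher of all tested genes. Their median log2 fold change was -1.18, beside 0.06 over all genes. Slco1a1, which encodes a carrier of steroid conjugates known for androgen-dependent levels in mouse kidney, read 13.5, 8.39, 30.7, 37.9 and 32.0 CPM in tumour areas, against 130.5, 156, 163 and 145 CPM in normal areas (-2.60 ± 0.34, adjusted p = 5.42e-05 in edgeR). It fell in each tumour area, most in R2 and L4. Slco4c1, a basolateral carrier of digoxin and thyroid hormone, read 19.5, 23.7, 50.8, 46.9 and 28.6 CPM in tumour areas, against 160.1, 139.5, 124 and 135 CPM in normal areas (-2.05 ± 0.25, adjusted p = 3.59e-05). Slco1a6 read 133, 181, 197, 231 and 184 CPM in tumour areas, against 432, 435, 471 and 444 CPM in normal areas (-1.27 ± 0.13, adjusted p = 7.2e-06). All 3 genes were without overlap of the groups.

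Slco2b1, a carrier of steroid sulfates, fell at a low level (3.76 ± 0.936 against 8.08 ± 0.105 CPM, -1.10 ± 0.19). Slco2a1, the prostaglandin transporter, was the Slco gene that rose, at 293, 263, 284, 224 and 278 CPM in tumour areas, against 201, 179, 175 and 198 CPM in normal areas (0.51 ± 0.08, adjusted p = 0.000253 in edgeR). Endothelium is a known site of this gene, and summed endothelial markers were lower, at 883 to 1121 CPM in tumour areas and 1282 to 1325 CPM in normal areas, with 4 of 6 tested markers lower and 1 higher. The part of endothelium in the value was not tested. Slco1a4, at 4.68 ± 1.38 against 4.59 ± 0.868 CPM, was not called (adjusted p = 0.932).

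ABC genes for lipids and sterols moved apart. Abca1, which exports cholesterol and phospholipid to apolipoprotein A-I, stood at 289, 305, 249, 255 and 235 CPM in tumour areas, against 53.7, 52.8, 55.0 and 52.6 CPM in normal areas. It was 4.98-fold higher, with all tumour areas far above all normal areas and a narrow spread within each group (2.32 ± 0.08, adjusted p = 2.41e-08 in edgeR). Abcg1, which passes sterol on to high-density lipoprotein, had 89.0, 65.4, 46.5, 45.6 and 79.1 CPM in tumour areas, against 27.3, 28.1, 26.7 and 30.4 CPM in normal areas (1.21 ± 0.20, adjusted p = 0.000302). It was highest in L4 and R5. Macrophages are known to use both genes, and macrophage and dendritic cell markers moved with them: 6 of 7 tested, of 13 listed and 8 in the table, were higher, and their sum was 887 to 2131 CPM in tumour areas and 106 to 130.03 CPM in normal areas. Lyz2 made up most of that sum, at 1142 ± 424 CPM in tumour areas and 69.3 ± 6.63 CPM in normal areas. Csf1r was the tested marker not called (19.7 ± 3.06 against 15.9 ± 3.33 CPM, adjusted p = 0.0974 in edgeR). The macrophage and dendritic cell sum was highest in L4 and R5, as Abcg1 was, whereas Abca1 was highest in R2. The summed fibroblast, T and NK cell, B and plasma cell, fat and urothelial markers were also highest in L4 and R5, so this order is not particular to macrophage markers. The part of any of these cells in either value was not tested.

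Abca13, one of the largest ABC proteins, had the largest fall of all members. It stood at 73.1, 44.6, 183, 214 and 173 CPM in tumour areas, against 993, 1062, 1049.7 and 985 CPM in normal areas (-2.89 ± 0.39, adjusted p = 6.35e-05 in edgeR). R2 and L4 were lowest, as for Slc22a6 and Slco1a1. Abca8a, of a lipid transporter cluster it shares with Abca8b, Abca9 and Abca6, read 3.34, 2.01, 2.18, 2.18 and 1.83 CPM in tumour areas, against 12.3, 10.8, 11.5 and 10.5 CPM in normal areas (-2.27 ± 0.18, adjusted p = 1.44e-06). In gene order, its neighbours Abca8b (6.88 ± 1.56 against 13.6 ± 1.61 CPM, -0.98) and Abca9 (31.4 ± 5.69 against 53.1 ± 0.796 CPM, -0.76) fell less by value, and the differences between neighbours were not tested.

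Abca2, a lysosomal lipid transporter (0.43 ± 0.06), and Abca7, a phospholipid transporter (0.50 ± 0.11), rose, at 115 ± 7.84 against 85.4 ± 1.80 CPM and 25.7 ± 3.04 against 18.2 ± 1.09 CPM. Abca3, which loads surfactant lipid in lung, was not called at 1052 ± 168 against 1186 ± 35.2 CPM (-0.17 ± 0.11, adjusted p = 0.189), passed with the letter covariate (-0.26, adjusted p = 0.0401) and read 0.11 with library size alone. Abcg3, a rodent relative of Abcg2, rose at a low level (4.22 ± 1.21 against 2.27 ± 1.15 CPM, 0.87 ± 0.33, adjusted p = 0.0353). Its groups overlap, and the call was lost without tumour L4, R2 or R5 and without normal L1, L2 or R2 (adjusted p = 0.0554 to 0.104), as well as among R areas (0.44) and without L4 and R5 (0.122).

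Efflux pumps of drugs and conjugates also differed by member. Abcc2, which encodes MRP2, the brush border pump for glucuronide and glutathione conjugates, had 71.3, 104, 178, 224 and 141 CPM in tumour areas, against 859, 890.1, 865 and 861 CPM in normal areas. It was 6.06-fold lower, with every tumour area far below the narrow normal range (-2.60 ± 0.27, adjusted p = 1.02e-05 in edgeR). Abcc4, which encodes MRP4, a brush border pump for cyclic nucleotides and urate, fell less by value, to 104 ± 19.7 CPM in tumour areas, against 166 ± 10.1 CPM in normal areas (-0.68 ± 0.13, adjusted p = 0.000827). The level of Abcc2 divided by that of Abcc4 was 0.684 to 2.05 in tumour areas and 4.92 to 5.40 in normal areas. Abcg2, the BCRP pump for drugs and urate, averaged 33.5 ± 5.73 against 43.0 ± 2.32 CPM (-0.36 ± 0.13, adjusted p = 0.0267), and its call was lost without normal L1 or L2 (0.0608 and 0.0665), with upper quartile factors, with library size alone (0.579) and among R areas alone.

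Abcc1, which encodes MRP1, a pump of many cell types, rose to 45.9 ± 10.96 CPM in tumour areas, against 28.1 ± 1.07 CPM in normal areas (0.71 ± 0.17, adjusted p = 0.00302 in edgeR). Abcc3, which encodes MRP3, a basolateral pump, had 17.8, 4.53, 3.45, 3.05 and 5.48 CPM in tumour areas, against 1.51, 1.09, 1.66 and 2.23 CPM in normal areas (2.12 ± 0.61, adjusted p = 0.00908). All tumour areas were above all normal areas, and L4 carried much of the size: without L4 the log2 fold change was 1.38 (adjusted p = 0.00111), without L4 and R5 it was 1.21, and among R areas alone 1.09. Abcc9, the sulfonylurea receptor subunit of vascular KATP channels, fell to 1.22 ± 0.514 CPM in tumour areas, against 6.88 ± 1.03 CPM in normal areas (-2.46 ± 0.26, adjusted p = 1.28e-05). Abcc6, which takes part in ATP release from liver, was not called (12.4 ± 2.61 against 10.7 ± 0.798 CPM, adjusted p = 0.288), but was called once tumour L4 was dropped (0.34, adjusted p = 0.0285), without L4 and R5 (0.36) and with library size alone (0.49). Abcc10 was not called (6.65 ± 1.64 against 8.77 ± 1.33 CPM, adjusted p = 0.092), unless tumour R4 was dropped (adjusted p = 0.0327).

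**Figure D3:**
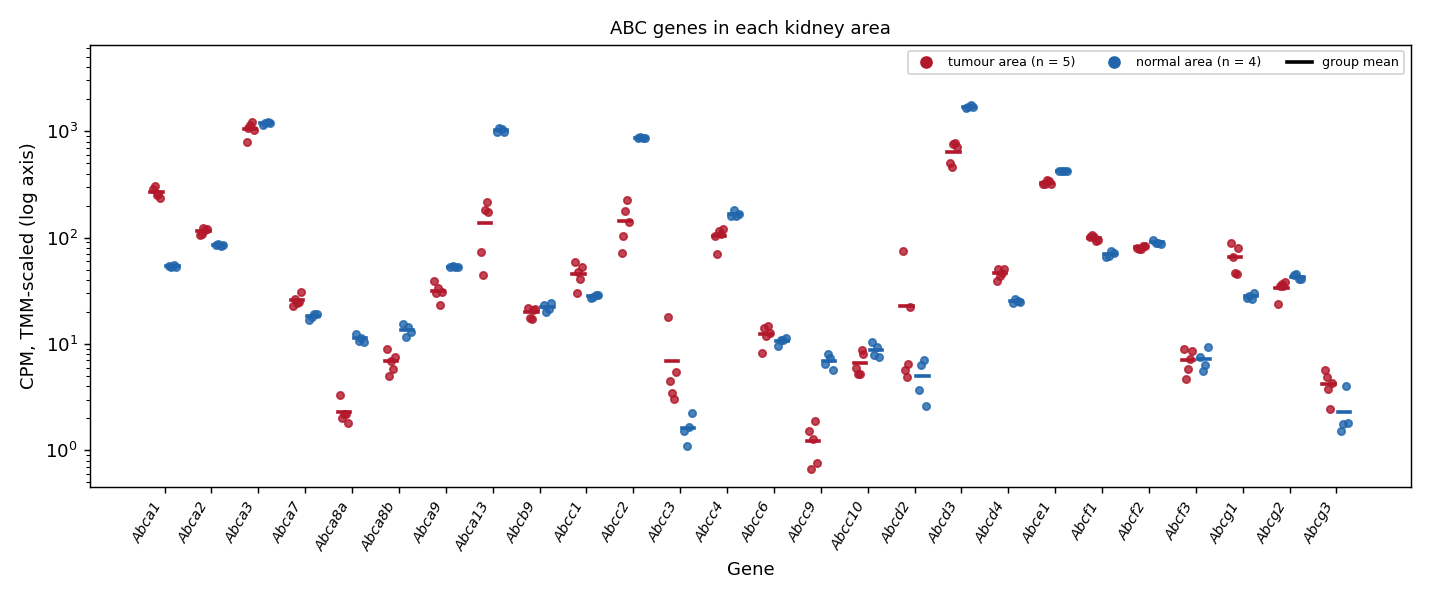
CPM (log y axis) of 26 tested ABC genes (x axis) in 5 tumour areas (red, left of each pair) and 4 normal areas (blue, right), with bars at the group means. Abca1 lies above and Abca13, Abcc2 and Abcd3 lie below the normal areas in all tumour areas, and Abcd2 and Abcc3 have 1 tumour area, L4, far above the rest.

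The Abcd transporters moved in opposite directions. Abcd3, a peroxisomal carrier, which imports dicarboxylic, branched-chain and bile acid precursors, stood at 504, 457, 754, 778 and 704 CPM in tumour areas, against 1666, 1704, 1757 and 1698 CPM in normal areas (-1.42 ± 0.15, adjusted p = 1.42e-05 in edgeR). Abcd4, the lysosomal cobalamin exporter, rose to 46.2 ± 5.02 CPM in tumour areas, against 25.2 ± 0.894 CPM in normal areas (0.87 ± 0.09, adjusted p = 1.31e-05). For both genes the groups did not overlap.

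Abcd2, a peroxisomal fatty acid transporter that is known to be abundant in fat, had 74.1, 5.71, 4.90, 6.53 and 22.4 CPM in tumour areas, against 3.68, 6.41, 7.14 and 2.63 CPM in normal areas. Only L4 and R5 lay above the normal range (2.17 ± 0.87, adjusted p = 0.0418 in edgeR). Without these areas the log2 fold change was 0.17 (adjusted p = 0.619), and without L4 alone 0.97 (adjusted p = 0.109). The call also ended without tumour R5 or any 1 normal area (adjusted p = 0.0622 to 0.101), among R areas alone (0.261) and in limma-voom (0.209). The fat marker sum was highest in the same areas, L4 and R5, and its part in the value was not tested.

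**Figure D4:**
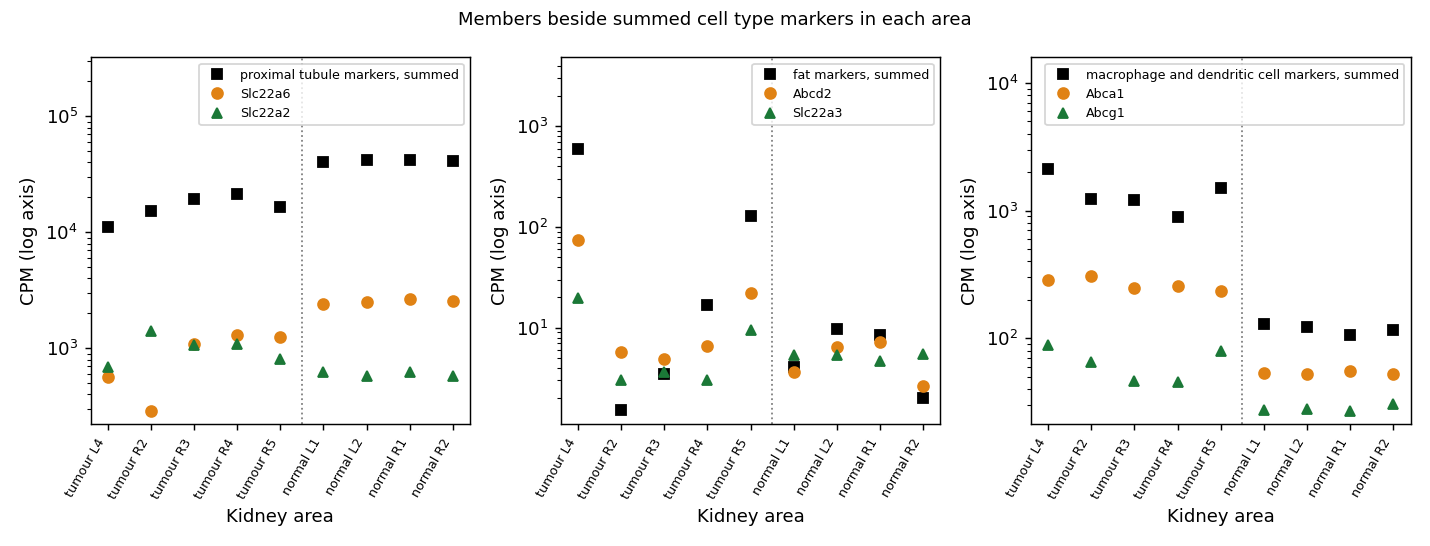
CPM (log y axis) in each area (x axis, tumour areas left of the dotted line and normal areas right) of Slc22a6 and Slc22a2 beside summed proximal tubule markers, Abcd2 and Slc22a3 beside summed fat markers, and Abca1 and Abcg1 beside summed macrophage and dendritic cell markers. Abcd2, Slc22a3 and the fat sum are all highest in L4 and R5, and Slc22a2 is higher while the proximal tubule sum is lower in tumour areas.

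Abcb9, a lysosomal peptide carrier, was not called (19.8 ± 2.22 against 22.2 ± 1.84 CPM, adjusted p = 0.19). Of the members that do not transport, Abcf1, a translation initiation factor, rose to 99.1 ± 5.33 CPM in tumour areas, against 70.0 ± 3.94 CPM in normal areas (0.50 ± 0.06, adjusted p = 3.01e-05 in edgeR). Abce1, which recycles ribosomes, fell to 328 ± 14.3 CPM in tumour areas, against 422 ± 3.90 CPM in normal areas (-0.37 ± 0.05, adjusted p = 4.89e-05), a call that library size scaling ended (-0.08). Abcf2 was called at a small difference (80.8 ± 3.09 against 90.3 ± 3.73 CPM, -0.16, adjusted p = 0.0167) that read 0.13 with library size alone and was not called without normal L1 (adjusted p = 0.0517), with upper quartile factors or among R areas alone. Abcf3, at 7.04 ± 1.78 against 7.20 ± 1.63 CPM, was not called (adjusted p = 0.968).

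The members varied more among tumour areas than genes in general. Over the 40 members averaging 10 CPM or more in both groups, the median coefficient of variation was 20.7% among tumour areas and 4.99% among normal areas, beside 10.5% and 4.59% over 4767 genes of that level. Within the tumour group, R2 held the lowest value for 12 of the 25 members called lower, L4 for 10, R4 for 2, R5 for 1 and R3 for 0. Over all 52 tested members, L4 was lowest for 21, R2 for 19, R4 for 8, R3 for 2 and R5 for 2. The same count over all genes was not made, so this order may not be particular to the members. R2 was not the area with the least proximal tubule marker sum, which was L4, but it had the least of the thick limb and distal tubule markers, at 1710.5 CPM against 3535 to 7850.4 CPM elsewhere in tumours and 12849 to 13284 CPM in normal areas, and the least collecting duct markers, at 84.7 CPM against 283 to 387 CPM and 1295 to 1405 CPM.

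**Figure D5:**
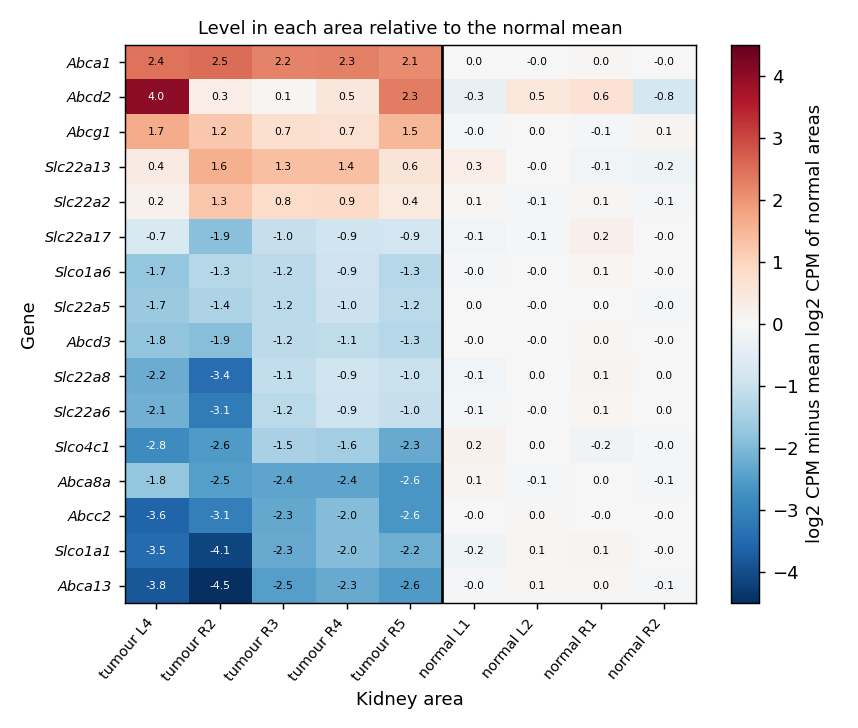
Log2 CPM in each area minus the mean log2 CPM of the normal areas, for Slc22a2 and the 15 called members of 2-fold change or more whose mean reached 10 CPM in the group where it was higher. Columns are the 5 tumour areas (left) and 4 normal areas (right). R2 has the lowest values of Slc22a6 (-3.13), Slc22a8 (-3.44), Slco1a1 (-4.14) and Abca13 (-4.52) and the highest of Slc22a2 (1.25).

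Per kilobase of merged exons in the GENCODE M21 gene models, the order of levels among the members named here also differed. In tumour areas Slc22a2 led with 408 CPM per kb, followed by Slc22a6 (226), Slc22a8 (119.9), Abca3 (112) and Slc22a13 (102). In normal areas Slc22a6 led with 635 CPM per kb, followed by Slc22a8 (332), Abcd3 (259), Slc22a2 (241) and Slc22a5 (168). In tumour areas Slc22a8, Abca3 and Slc22a13 differed by less than the spread of Slc22a8 between areas. These levels assume that the authors counted whole gene models, which is not given in the sources used here.

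Genes that work with these transporters were taken from lists chosen by role. Of 61 such genes tested, 16 were higher and 31 lower, beside 39.3% higher and 35.3% lower of all tested genes, the background for each list below. With library size alone 28 were higher and 29 lower, beside 3735 higher and 1689 lower of all 7020 genes. Among transcription factors of tubule transporter genes, 4 of 5 tested fell and none rose. Ppara, a regulator of fatty acid oxidation, averaged 13.9 ± 3.11 CPM in tumour areas and 94.1 ± 11.8 CPM in normal areas (-2.75 ± 0.15, adjusted p = 1.93e-07 in edgeR), and Hnf4g fell by 1.98 on the log2 scale. Hnf4a is not analysed here.

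Partner carriers of organic ion and urate transport fell in 8 of 13 tested genes and rose in 3. Slc13a3, which supplies the dicarboxylate that OAT1 and OAT3 exchange, averaged 2.92 ± 1.23 CPM in tumour areas and 9.07 ± 0.656 CPM in normal areas (-1.63 ± 0.28, adjusted p = 0.000409 in edgeR). Slc9a3, the brush border sodium-proton exchanger, fell by 2.85 and Slc5a12, a lactate carrier, by 3.27 on the log2 scale. Slc13a1, a sulfate carrier, and Slc13a2, a citrate carrier, rose by 0.44 and 0.46. Brush border scaffolds fell in 3 of 5 genes and rose in none, with Pdzk1, which binds Slc22a and Slco carriers, at 582 ± 127 against 959 ± 14.2 CPM (-0.72 ± 0.15, adjusted p = 0.00107), and Slc9a3r2 at -0.47, a call not made with library size alone.

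Partners of sterol handling moved in both directions, with 4 of 9 higher and 2 lower. Pltp, phospholipid transfer protein, averaged 100.03 ± 37.2 CPM in tumour areas and 20.3 ± 2.90 CPM in normal areas (2.31 ± 0.27, adjusted p = 2.09e-05 in edgeR), and Soat1, which esterifies cholesterol, rose by 2.05. Apob fell by 2.48 and Lipa, the lysosomal lipase, by 1.36. Among 10 tested xenobiotic and sterol sensors 4 rose and 5 fell, with Srebf1 at 1.36, Ahr at 0.71, Nr3c1 at -2.32 and Nr1h4 at -1.56. The Ahr call was lost without any 1 normal area (adjusted p = 0.0666 to 0.0984) and in limma-voom (0.0725). The liver X receptor genes Nr1h2 and Nr1h3 held no count.

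Peroxisome and mitochondrial partners fell in 5 of 6 genes and rose in none, with Cpt1a at -1.30 and Acox2 at -1.10. Ribosome partners fell in 3 of 7 and rose in 1, with Gspt1 at -1.87, Gcn1l1 at -1.27 and Hbs1l at 0.22, the last not called among R areas alone. Partners of antigen peptide loading rose in 4 of 5, with Tapbp at 1.73 and Canx at 0.48, while the ABC genes Tap1 and Tap2 held no count. Cftr, an ABC chloride channel under another symbol, fell to 0.825 ± 0.362 CPM in tumour areas, against 2.56 ± 0.153 CPM in normal areas (-1.63 ± 0.30, adjusted p = 0.000572 in edgeR). No KATP channel partner was tested.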

How the data were processed

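The authors deposited raw read counts per gene, 1 column per area, all whole numbers on checking, with a different total in each of 9 columns. STAR 2.3, HTSeq, edgeR and mm9 are named in the submitters' processing notes. Libraries were made from poly(A) RNA with a TruSeq kit, per the labels' protocols. For annotation, strand setting and any filter: not given in the sources used here. Of 14052 identifiers, 14026 matched a symbol and 26 did not.

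Genes were kept by filterByExpr (minimum count 10, minimum total 15), scaled by TMM and tested in edgeR 4.0.16 (R 4.3.3) with the group as the only term, by quasi-likelihood, 2-sided, with Benjamini-Hochberg adjustment over all 7020 genes. The threshold was an adjusted p of 0.05. The fit gave both groups the same spread for each gene, although most members varied more among tumour areas than among normal areas. Adjusted p-values of members with unequal spread are less certain for this reason. Standard errors are the log2 fold change divided by the root of the test's F. Plus-or-minus values after CPM are SDs over 5 tumour or 4 normal areas. The kit does not mark strand, so reads of Slc22a3 and Plg, Slc22a12 and Nrxn2, Abca3 and D330041H03Rik, Abcc10 and Dlk2, and Abcc9 and 5330439B14Rik, which overlap on opposite strands, cannot be told apart. The same holds for Abca8b and Gm11697, Abcb9 and Gm34086, Slco2a1 and n-R5s89, and Slco2b1 with Gm15635 and Gm34280. Members and lists were chosen with earlier results of these data known. Named with every area are members called with at least 2-fold change and a mean of at least 10 CPM. Slc22a2, Slc22a3, Slc22a19, Slco2a1 and Abcc3 were given so after their values were seen, and Slc13a3 was named so among the companions. Counts cover all tested members, but 3 of them are not reported singly here. Companion lists name up to 2 called genes in each direction. Shared 50-base words were counted in GENCODE M21 transcripts, and promoters are from RefSeq (GRCm38.p6). Alternatives used DESeq2 1.42.0 and limma 3.58.1. On counts simulated for this comparison (7020 genes), the test called 62.7% of true 1.5-fold changes, 91.0% of 2-fold ones and 100% of 4-fold ones. Of its 178 calls there, 9 were of unchanged genes. The data themselves gave 5236 calls. Whether these rates hold with that many calls, or for members with unequal spread between the groups, was not tested.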

Additional observations from a re-analysis of the deposited data

Results flagged for a closer look

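Of 104 groups of areas examined (52 tested members in each group), 6 held 1 area far from the rest, where chance marks about 1 in 20. In 4 of them the area was tumour L4. Abcd2 stood at 74.1 CPM in L4, against 4.90 to 22.4 CPM in the other tumour areas. Abcc3 stood at 17.8 CPM in L4, against 3.05 to 5.48 CPM in the others, and Abca8a at 3.34 CPM, against 1.83 to 2.18 CPM. Abcg2 was lowest in L4, at 23.5 CPM, against 34.7 to 37.9 CPM in the others. Among the normal areas, R1 had the highest Abcg3 level, at 3.99 CPM against 1.51 to 1.82 CPM, and the lowest of Slc22a21, at 0.332 CPM against 1.62 to 1.73 CPM. The last 2 genes rest on few counts.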

How the results depend on the processing

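Over 19 alternatives (3 other scalings, 2 other filters, DESeq2, limma-voom, the area letter as a covariate, areas with the letter R, without tumour areas L4 and R5, and each of 9 areas left out), 30 of the 39 called members reported singly kept their call and direction in all. At least 1 alternative ended the call of the other 9, 5 uncalled members gained one, and Slc22a3 passed after its sign had turned. The count of members at least 2-fold higher was 11 with library size scaling in place of 6, and that of higher companion genes 28 in place of 16. With library size scaling, signs turned for Abca3 (0.11), Abcb9 (0.13), Abcf2 (0.13) and Abcf3 (0.28), and with upper quartile factors for Abcf3 (0.0513). Of these only Abcf2 was called with TMM, and it was not called after the turn. Without L4 and R5, signs turned for Slc22a3 (-0.67) and Slco1a4 (-0.0134), and among R areas alone for Slc22a3 (-0.0572). Abcf3 also turned with the letter covariate (0.0162) and in limma-voom (0.0126), where Slco1a4 read -0.0128. With 1 area left out, log2 fold changes ranged from -0.129 to 0.128 for Abcf3, from -0.0858 to 0.81 for Slc22a3 and from -0.142 to 0.153 for Slco1a4. The causes were not tested. No paired analysis was possible because the groups are of different genotypes and carry different numbers in their descriptions. The area name R2 occurs in both groups but does not mark a pair. Slc22a21 passed the filter in 15 of the 19. Depth limits the members with few counts, such as Slc22a21, Abcg3 and Abcc3.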
